A study of Mus musculus with 8 samples.

Results

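The genes described here are cyclins, cyclin-dependent kinases (CDKs) and genes of mitosis, a set of 43 genes picked by symbol from the 53801 rows of the count table. They comprised 11 regulators of G1 and of entry into S phase, 31 genes of G2 and mitosis (G2/M genes) and Cdk15, a little-studied CDK that belongs to neither class. RNA-seq was performed on stromal cells sorted from MO5 tumors, grown by injecting B16 melanoma cells that carry the ovalbumin gene under the skin of ADAM12-GFP mice on the C57Bl/6 background. In these mice a bacterial artificial chromosome transgene (Cre-Ires-GFP) makes GFP report Adam12 expression. All cells were PDPN+ PDGFRα+ CD45- CD31-, taken at an early tumor stage, and the reporter divided them into ADAM12+ (GFP+) and ADAM12- (GFP-) cells, with 4 libraries each. Both groups thus came from the same tumor model, host strain and gate, and neither the labels nor the methods say whether a GFP+ and a GFP- library came from the same tumor. The labels name no animal for a library, while the study's methods take n as the number of mice unless otherwise stated.

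Cells leave G1 when D-type cyclins bound to CDK4 or CDK6, and then E-type cyclins bound to CDK2, phosphorylate the retinoblastoma protein RB1 and free E2F transcription factors. Cyclin A and B with CDK1 then carry the cell through G2 and mitosis, in which kinases, kinesins, centromere proteins and the spindle checkpoint divide the chromosomes. Most G2/M transcripts are found mainly in cycling cells, because FOXM1, MYBL2 and the DREAM complex act on their promoters through a CHR element, and NF-Y through CCAAT boxes. Several G1 regulators, such as Ccnd2, Cdk4 and Rb1, are also transcribed in resting cells.

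To show how the sequence at the start of these genes divides the classes, promoter windows from RefSeq (assembly GRCm38.p6, 250 bases before to 50 after the annotated start) were searched for TTTGAA, the letters of the usual CHR element, and for CCAAT, each on both strands. RefSeq windows matched 33 of the 43 members in 35 windows, of which 26 belonged to G2/M genes and 8 to G1 regulators. TTTGAA was present in 18 of 26 G2/M windows (69.2%), in 0 of 8 G1 windows and in 17.9% of all 32851 windows. CCAAT was present in 20 of 26 G2/M windows (76.9%), in 3 of 8 G1 windows (37.5%) and in 37.4% of all windows. Both motifs occurred in 16 of 26 G2/M windows (61.5%), against 6.95% of all windows. The E2F-type motifs TTTCCCGC and TTTGGCGC, also searched on both strands, each occurred in 1 of 8 G1 windows (Cdk2 and Cdc25a, in that order) and in 0 G2/M windows, and in 1.07% and 0.514% of all windows. These matches describe letters and show no binding. The windows of Ccnb2 and Birc5, the G2/M genes that passed the test below, and of Cdk1 and Mki67, the mitotic kinase and the standard proliferation marker, which did not, are printed from 250 bases before to 30 after the start, with TTTGAA and CCAAT on either strand in capitals (TTTGAA or its reverse complement, and CCAAT or ATTGG). The windows lie at chr9:70421525-70421804 (minus strand), chr11:117848987-117849266 (plus), chr10:69352883-69353162 (minus) and chr7:135716350-135716629 (minus).
Ccnb2: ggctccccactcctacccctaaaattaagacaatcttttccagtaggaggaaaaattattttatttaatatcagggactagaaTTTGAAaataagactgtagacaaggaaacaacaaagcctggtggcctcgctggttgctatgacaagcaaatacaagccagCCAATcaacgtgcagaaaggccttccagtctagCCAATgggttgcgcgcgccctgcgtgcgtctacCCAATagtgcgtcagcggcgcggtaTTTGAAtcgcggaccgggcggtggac
Birc5: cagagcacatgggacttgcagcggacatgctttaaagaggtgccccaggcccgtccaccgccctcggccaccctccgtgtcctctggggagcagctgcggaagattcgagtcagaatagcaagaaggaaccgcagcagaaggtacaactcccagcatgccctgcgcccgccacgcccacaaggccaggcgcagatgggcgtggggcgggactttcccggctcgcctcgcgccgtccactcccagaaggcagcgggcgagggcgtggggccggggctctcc
Cdk1: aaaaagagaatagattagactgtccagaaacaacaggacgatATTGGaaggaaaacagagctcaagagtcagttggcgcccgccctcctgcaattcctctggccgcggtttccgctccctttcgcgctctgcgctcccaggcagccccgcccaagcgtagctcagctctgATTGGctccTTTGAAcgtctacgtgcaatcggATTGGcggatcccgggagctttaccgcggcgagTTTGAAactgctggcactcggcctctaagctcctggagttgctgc
Mki67: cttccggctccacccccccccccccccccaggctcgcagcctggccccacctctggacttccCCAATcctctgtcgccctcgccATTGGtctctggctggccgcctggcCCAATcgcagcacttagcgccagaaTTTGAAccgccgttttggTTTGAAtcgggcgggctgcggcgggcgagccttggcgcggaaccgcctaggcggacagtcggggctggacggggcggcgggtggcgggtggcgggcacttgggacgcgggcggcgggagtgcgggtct
Ccnb2 held 2 copies of TTTGAA, from base 167 to 162 before the start and from base 5 to 10 after it, and 3 of CCAAT. Birc5 held neither. Cdk1 and Mki67 each held 2 copies of TTTGAA and 3 of CCAAT, so among these 4 genes the motifs did not sort those that passed the test from those that did not.

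Reads were counted per gene, and levels are given as normalized counts, read counts scaled by a DESeq2 size factor per library. Libraries held 883144 to 31666734 reads. GFP- replicate 3 was the shallowest, so that 1 read there weighed 10.99 normalized counts and 12 of the 31 G2/M genes rested on fewer than 10 reads. All 10 stromal genes examined had positive log2 fold changes. Of these, 7 were called higher in GFP+ cells, against 4.66% of tested genes (Pdgfra, Pdpn, Col3a1, Dcn, Lum, Thy1 and Fap). The 10 genes held 2.78% to 5.41% of counts in GFP- and 6.32% to 6.40% in GFP+ libraries. Such a difference does not test the identity of either group, and PDPN and PDGFRα were part of the gate. Pdgfra was present in both groups, at 5774 ± 978 normalized counts in GFP- and 14371 ± 1526 in GFP+ libraries (SD, n = 4 each). In bulk RNA of this kind, fewer cells of a type and less RNA per cell cannot be told apart.

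The comparison asked how cell cycle transcripts differ between ADAM12+ and ADAM12- cells. A gene was called where the adjusted p of the DESeq2 Wald test over all genes was under 0.05, and fold changes are log2 of GFP+ over GFP-. All 43 members were tested. Of these, 5 were called lower in GFP+ cells (11.6%, against 4.76% of the 15283 genes tested) and 0 were called higher (against 4.66%). The genes called were the cyclins Ccnd2 and Ccnb2, the kinases Cdk2 and Cdk15, and the mitotic regulator Birc5. The edgeR quasi-likelihood test called 3 of them, Ccnd2, Cdk2 and Cdk15 (lower calls made up 2.28% and higher calls 2.83% of the genes edgeR tested). The study had singled out Cdk2 and Cdk15 in its text, and Ccnd2, Ccnb2 and Cdk6 beside them in a plot, as lower in these same libraries, so those genes are not independent evidence of a direction. Among the other 38 members, 1 was called lower (2.63%). The genes set aside had been named as lower in these data, so this share is low by construction. It cannot be compared with the share of all genes, from which no called genes were removed.

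Log2 fold changes were negative for 36 of 43 members (83.7%), against 50.5% of all tested genes, and their median was -0.57 against -0.01 over all tested genes. These genes rise and fall together in dividing cells and are not independent of each other. For 9 members every GFP+ library lay below every GFP- library (20.9%, against 5.95% of tested genes): Cdk6, Ccne1, Cdk2, E2f1, Ccnb2, Cdc25b, Birc5, Bub1b and Cdk15. Among the 38 members that the study had not singled out there were 5 (13.2%), and 31 of the 38 (81.6%) had a negative log2 fold change, with a median of -0.50. No member had every GFP+ library above every GFP- library (against 6.37%).

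**Figure D1:**
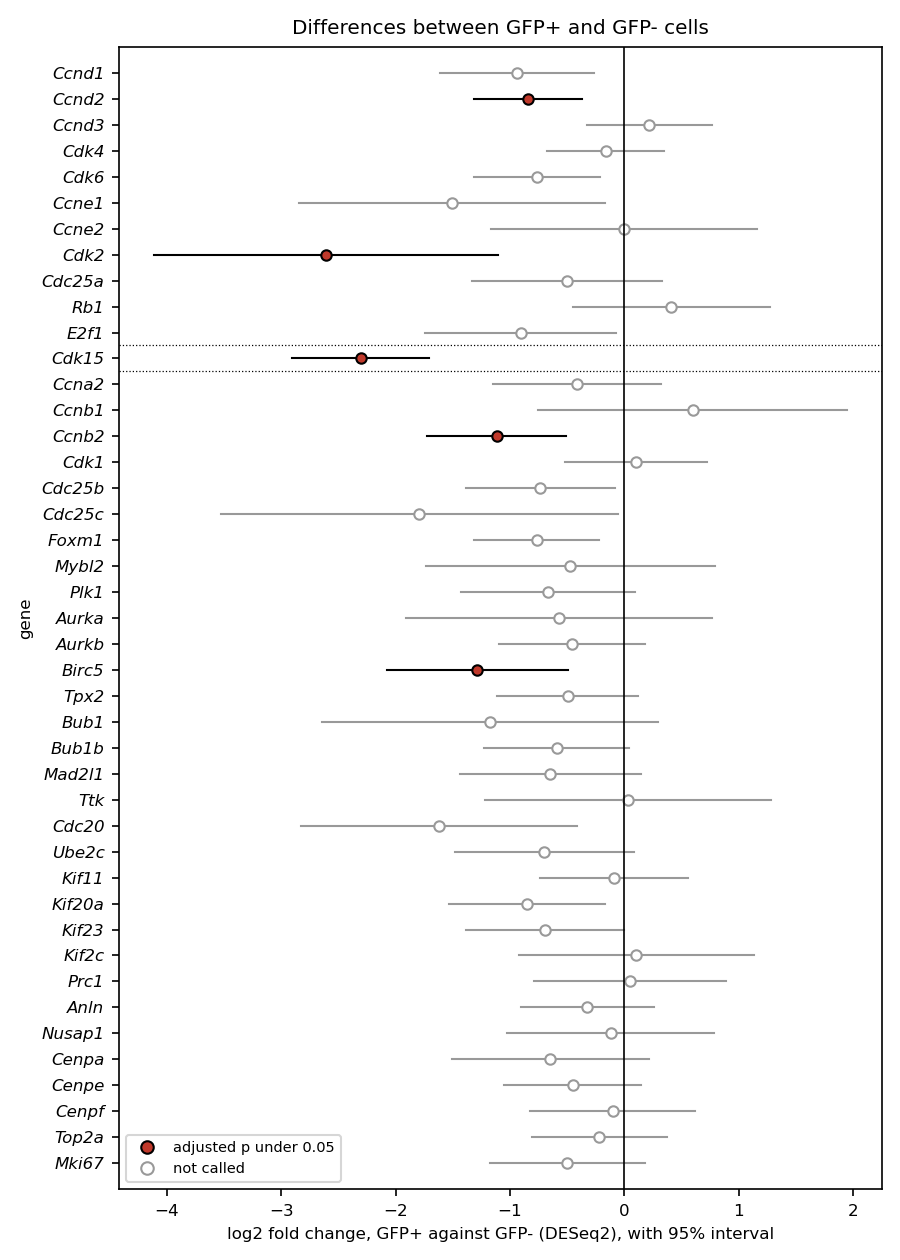
Log2 fold change of GFP+ against GFP- cells (horizontal axis, DESeq2, points) with its 95% interval (lines) for each of the 43 members (vertical axis), G1 regulators at the top, then Cdk15, then G2/M genes. The 5 called genes (filled) lie left of zero, and the intervals of most other members cross it.

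Among the 11 G1 regulators, 2 were called lower (18.2%, against 4.76% of tested genes) and 0 higher (against 4.66%), and the median log2 fold change was -0.76. At an unadjusted DESeq2 p under 0.05 there were 6 (54.5%, against 10.8% of tested genes), all lower: Ccnd1, Ccnd2, Cdk6, Ccne1, Cdk2 and E2f1. Of the 8 that the study had not singled out, 0 were called and the median was -0.33. The genes set aside had been named as lower in these data, which by itself lowers the count of calls.

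Of the 3 D-type cyclins and their 2 kinase partners, 1 gene was called. Ccnd2 (ENSMUSG00000000184, minus strand of chromosome 6, 127125162 to 127152193, GRCm38), the D-type cyclin with the most transcript here, stood at 2539.7, 2476, 1868 and 2959 normalized counts in GFP- replicates 1 to 4 and at 1025, 1263, 1229.9 and 1989 in GFP+ replicates 1 to 4. GFP+ replicate 4 lay above GFP- replicate 3, the shallow library, and the other libraries did not overlap. The mean of the 4 libraries dropped from 2461 ± 449.7 to 1377 ± 422 (SD), or -0.84 ± 0.24 (SE) as a log2 fold change (DESeq2 adjusted p = 0.00913, edgeR adjusted p = 0.0410). The call was lost without GFP- replicate 4 (DESeq2 adjusted p = 0.0586), without GFP+ replicate 3 (0.0547) and without both replicate 1 libraries (0.0550). Exons of 2 antisense genes overlap those of Ccnd2 on the opposite strand, by 368 and 372 bases, and 17 of the 43 members have such an overlap with some gene.

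Ccnd1, the D-type cyclin most often induced by mitogens, had 602, 475, 286 and 550.5 normalized counts in the GFP- libraries and 128, 242, 271 and 369 in the GFP+ libraries. Only GFP+ replicate 4 reached into the GFP- range, again above GFP- replicate 3. Its log2 fold change of -0.94 ± 0.35 (SE) had a DESeq2 adjusted p of 0.0645 and was not called, and it was called without GFP- replicate 3, without GFP+ replicate 4 and by limma voom. For Ccnd3, the remaining D-type cyclin, the difference was 0.22 on the log2 scale (95% interval -0.33 to 0.76).

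Of the kinases that D-type cyclins activate, neither was called. Cdk6 had 521, 427, 363 and 337 normalized counts in GFP- and 319, 228, 157 and 275 in GFP+ libraries, so the groups did not overlap although only 17.3 counts separated them. Its log2 fold change of -0.76 ± 0.28 (SE) had a DESeq2 adjusted p of 0.0666, and 0.0253 if GFP+ replicate 1 was left out. Cdk4 had 393, 734, 538 and 707.5 counts in GFP- and 409.7, 529.7, 658 and 535 in GFP+ libraries, and the groups overlapped through most of their range. The difference was -0.16 on the log2 scale, with a 95% interval from -0.67 to 0.35 (DESeq2 adjusted p = 0.805).

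The E-type cyclins, which activate CDK2 at the G1/S transition, were not called. Ccne1 had 171, 86.0, 76.9 and 97.7 normalized counts in GFP- and 8.33, 61.9, 10.8 and 70.5 in GFP+ libraries. The groups did not overlap, and GFP+ replicates 1 and 3 held almost none. Its log2 fold change of -1.50 ± 0.68 (SE) had a DESeq2 adjusted p of 0.165. Ccne2 had 60.1 ± 46.0 and 61.0 ± 20.9 counts in the groups (SD, n = 4 each), and the difference was -0.0028 on the log2 scale (95% interval -1.17 to 1.16).

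E2f1, the transcription factor released when RB1 is phosphorylated, had 121, 162, 242 and 133 normalized counts in GFP- and 33.3, 114, 77.6 and 110.4 in GFP+ libraries. The groups lay apart, but the highest GFP+ and lowest GFP- library differed by only 6.95 counts, and the log2 fold change of -0.91 ± 0.43 (SE) had a DESeq2 adjusted p of 0.189. Rb1 itself had a log2 fold change of 0.41 (95% interval -0.45 to 1.27), and Cdc25a, the phosphatase that activates CDK2, one of -0.50 (-1.33 to 0.33).

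Cdk2, the kinase of S phase entry, showed the largest log2 fold change of any member in size. It had 1720.3, 1286, 659 and 2007 normalized counts in GFP- replicates 1 to 4 and 23.6, 284, 204 and 418 in GFP+ replicates 1 to 4. Every GFP+ library lay below every GFP- library, and GFP+ replicate 1 held only 17 reads. The mean of the 4 libraries dropped from 1418 ± 586 to 232 ± 165 (SD), or -2.61 ± 0.77 (SE) as a log2 fold change (DESeq2 adjusted p = 0.0118, edgeR adjusted p = 0.0207). The DESeq2 adjusted p was 0.0583 without GFP- replicate 1, 0.0821 without GFP- replicate 4 and 0.0617 without GFP+ replicate 3.

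Cdk2 lies on chromosome 10 from 128697939 to 128705031 (GRCm38, minus strand), and the pigment cell gene Pmel starts inside it on the plus strand (128704195 to 128720238). The gene intervals share 837 bases, of which 34 are exonic in both. Pmel had 10141, 8940.1, 4538 and 13744 normalized counts in the GFP- libraries and 389, 947, 512 and 1653 in the GFP+ libraries, lower by the same test with a log2 fold change of -3.41 (DESeq2 adjusted p = 6.76e-13). Within each group Cdk2 and Pmel ranked the 4 libraries in the same order, replicates 4, 1, 2, 3 in GFP- and 4, 2, 3, 1 in GFP+ cells. Cdk2 counts amounted to 14.4% to 17.0% of Pmel counts in the GFP- libraries, a narrow range, and to 6.07%, 29.99%, 39.7% and 25.3% in GFP+ replicates 1 to 4. In 3 of the 4 GFP+ libraries the share was above that of every GFP- library. The study counted reads by strand, and reads of either gene assigned to the wrong strand were not tested.

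**Figure D2:**
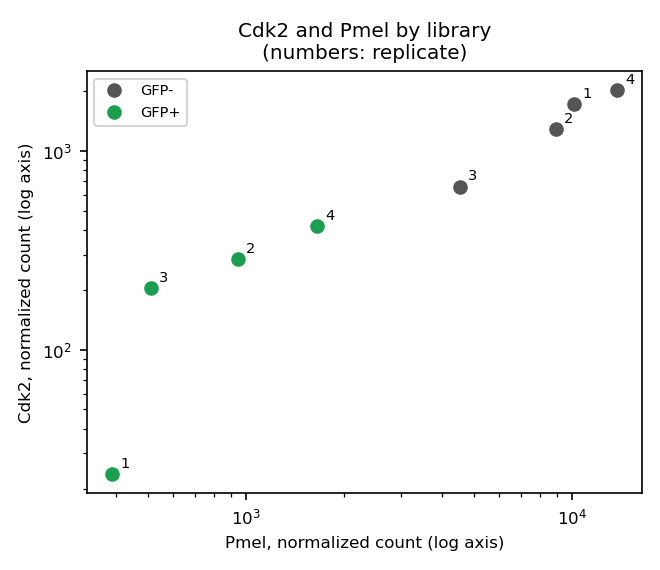
Normalized counts of Pmel (horizontal, log axis) and Cdk2 (vertical, log axis) in each library, GFP- in gray and GFP+ in green, numbered by replicate. The 4 GFP- libraries lie at the upper right, with Cdk2 from 659 to 2007, and the 4 GFP+ libraries at the lower left, with Cdk2 from 23.6 to 418.

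Cdk15 (ENSMUSG00000026023, plus strand of chromosome 1, 59256906 to 59352993) was the only member called under every alternative tried. It had 329.7, 303, 187 and 266 normalized counts in GFP- replicates 1 to 4 and 65.3, 45.2, 43.02 and 71.8 in GFP+ replicates 1 to 4. The lowest GFP- library, the shallow replicate 3 with 17 reads of this gene, still stood well above the highest GFP+ library. The mean fell from 271 ± 62.2 to 56.3 ± 14.4 (SD, n = 4 each), 4.82 times lower, with a log2 fold change of -2.31 ± 0.31 (SE), a DESeq2 adjusted p of 2.53e-11 and an edgeR adjusted p of 0.00231. Over the 18 alternatives its adjusted p-values ran up to 0.00980.

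**Figure D3:**
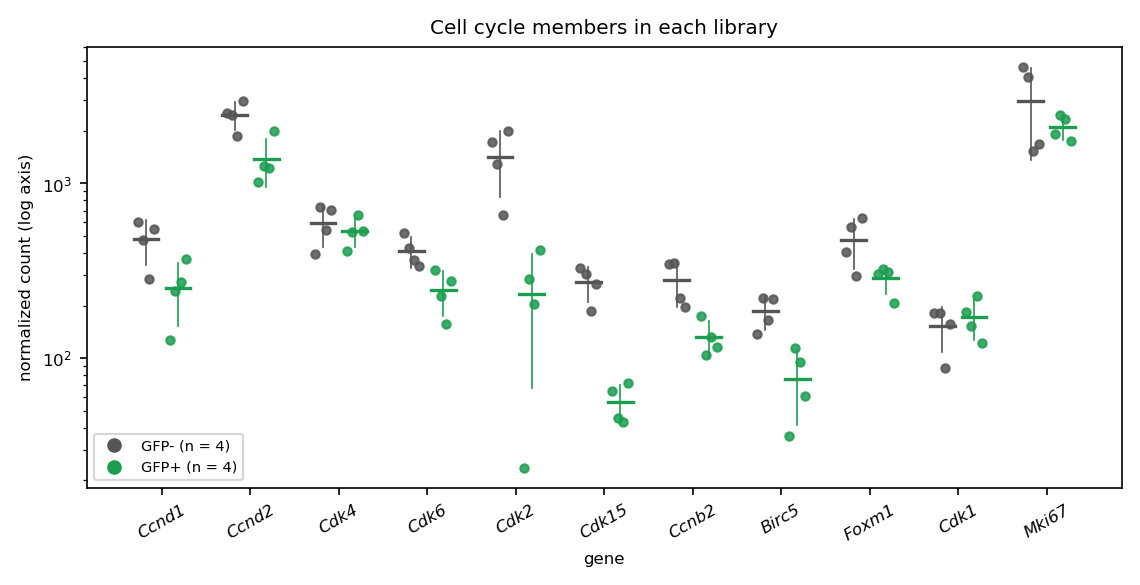
Normalized counts (vertical, log axis) of 11 members in each GFP- (gray) and GFP+ (green) library, with the group mean (bar) and SD (line), n = 4 each. Cdk15 and Cdk2 show a wide gap between groups, Ccnb2, Birc5 and Cdk6 a narrow one, and Cdk4, Cdk1 and Mki67 none.

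Of the 31 G2/M genes, 2 were called lower (6.45%, near the 4.76% of all tested genes) and 0 higher, and the edgeR test called 0 in either direction. At an unadjusted DESeq2 p under 0.05, 8 were lower (25.8%, against 10.8%) and 0 higher (against 10.2%). Log2 fold changes were negative for 26 and positive for 5, from -1.79 to 0.60, with a median of -0.50, or -0.49 over the 29 genes left without Ccnb2 and Birc5. Every GFP+ library lay below every GFP- library for 4 of the 31 (12.9%, against 5.95%).

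Among the cyclins and kinase of mitotic entry, Ccnb2 (ENSMUSG00000032218, minus strand of chromosome 9, 70407692 to 70421547), a B-type cyclin that activates CDK1, had 347, 353, 219.7 and 197 normalized counts in GFP- and 175, 105, 131 and 116 in GFP+ libraries. All GFP+ libraries lay below all GFP- libraries, and GFP- replicates 1 and 2 stood above replicates 3 and 4. The mean of the 4 libraries dropped from 279 ± 82.1 to 132 ± 30.9 (SD), or -1.12 ± 0.31 (SE) as a log2 fold change (DESeq2 adjusted p = 0.00637, edgeR adjusted p = 0.0692). Without GFP- replicate 2 the DESeq2 adjusted p was 0.0782.

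The other genes of mitotic entry were not called. Cdk1, the kinase that drives mitosis, had 180.4, 182, 87.9 and 158 normalized counts in GFP- and 185, 154, 226 and 122 in GFP+ libraries. The groups overlapped in part, with GFP+ replicates 1 and 3 above all GFP- libraries, GFP- replicate 3 below all GFP+ libraries and GFP+ replicates 2 and 4 within the GFP- range. The difference was 0.10 on the log2 scale, with a 95% interval from -0.52 to 0.73 (DESeq2 adjusted p = 0.913), and its sign changed with the libraries and test used. Ccnb1, the other B-type cyclin, had a log2 fold change of 0.60 (95% interval -0.76 to 1.95), with 211 counts in GFP+ replicate 1 against 37.2 to 58.2 in the other GFP+ libraries, and values from -0.61 to 0.97 over the alternatives tried. Ccna2, the A-type cyclin of S phase and G2, had a log2 fold change of -0.41 (-1.15 to 0.32).

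The CDC25 phosphatases remove inhibitory phosphates from CDK1. Cdc25b had 155, 231, 132 and 105 normalized counts in GFP- and 95.8, 92.9, 88.3 and 103 in GFP+ libraries. The GFP+ libraries lay closely together just below the lowest GFP- library, which exceeded the highest of them by 2.05 counts. Its log2 fold change of -0.73 ± 0.33 (SE) had a DESeq2 adjusted p of 0.166. Cdc25c had the most negative log2 fold change of the G2/M genes, -1.79, but few reads (0 in GFP+ replicate 1) and a 95% interval from -3.53 to -0.06, and was not called (DESeq2 adjusted p = 0.218).

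The transcription factors of the G2/M genes were FOXM1 and MYBL2. Foxm1 had 475 ± 153 normalized counts in GFP- and 286 ± 53.2 in GFP+ libraries (mean ± SD of 4 libraries), or -0.77 ± 0.28 (SE) as a log2 fold change (DESeq2 adjusted p = 0.0614). The gene passed the threshold without GFP- replicate 3, by limma voom and with size factors from well counted genes. Mybl2 had a log2 fold change of -0.47 (95% interval -1.74 to 0.79).

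Of the mitotic kinases and chromosomal passenger proteins, Birc5 (survivin, ENSMUSG00000017716, plus strand of chromosome 11, 117849251 to 117855743), the passenger that brings Aurora B to centromeres, was called. It had 138, 221, 165 and 219 normalized counts in GFP- and 36.1, 114, 94.5 and 60.4 in GFP+ libraries, with no overlap. The mean of the 4 libraries dropped from 186 ± 40.9 to 76.3 ± 34.8 (SD), or -1.29 ± 0.40 (SE) as a log2 fold change (DESeq2 adjusted p = 0.0212, edgeR adjusted p = 0.118). This call was lost in 5 of 18 alternatives, with a DESeq2 adjusted p of 0.123 where GFP- replicate 2 was left out, 0.134 for GFP- replicate 4 and 0.0954 for GFP+ replicate 4. Aurkb, the kinase of the same complex, had a log2 fold change of -0.46 (95% interval -1.09 to 0.18), Aurka one of -0.57 (-1.91 to 0.77), the Aurora A activator Tpx2 one of -0.49 (-1.11 to 0.12) and Plk1 one of -0.67 (-1.43 to 0.09).

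The 6 genes of the spindle checkpoint and anaphase were not called, with log2 fold changes from -1.62 to 0.03. Bub1b, which holds back anaphase until chromosomes are attached, had 251, 357, 253 and 301 normalized counts in GFP- and 104, 250.6, 248 and 172 in GFP+ libraries. The groups did not overlap, but only 0.374 counts lay between GFP- replicate 1 and GFP+ replicate 2, less than 1 read of either library. Its log2 fold change of -0.59 ± 0.32 (SE) had a DESeq2 adjusted p of 0.287. Cdc20, the activator of the anaphase-promoting complex, had a log2 fold change of -1.62 (95% interval -2.83 to -0.42) and a DESeq2 adjusted p of 0.0754, with 629 counts in GFP- replicate 1 against 84.0 to 176 in the other GFP- libraries. Without that library the Cdc20 log2 fold change was -0.62, and without GFP- replicate 4 it was -1.93 and Cdc20 was called (DESeq2 adjusted p = 0.0286). Bub1, Mad2l1, Ttk and the ubiquitin-conjugating enzyme Ube2c had log2 fold changes of -1.17, -0.65, 0.03 and -0.70. The value for Bub1 ran from -1.60 to -0.58 over all fits tried.

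No gene of the kinesins and cytokinesis proteins (7) or of the centromere and chromosome proteins (5) was called. In the first group Kif20a, a kinesin of the midzone, had the lowest log2 fold change, -0.85 with a DESeq2 adjusted p of 0.108, followed by Kif23 at -0.69 (0.237). Kif20a was called by limma voom (adjusted p = 0.0386) and in DESeq2 without GFP- replicate 3 (0.0305) or GFP+ replicate 1 (0.0230), and Kif23 without GFP+ replicate 3. Anln, Nusap1, Kif11, Prc1 and Kif2c had log2 fold changes between -0.32 and 0.11. In the second group Cenpa, the histone H3 variant of centromeres, and Cenpe, a centromere kinesin, had log2 fold changes of -0.65 and -0.45, and Cenpf and Top2a, which untangles chromosomes, had -0.10 and -0.22.

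Mki67, the gene of the Ki-67 antigen, had 4637, 4081, 1527 and 1672 normalized counts in GFP- and 1912, 2456, 2338 and 1744 in GFP+ libraries. GFP- replicates 1 and 2 stood above all other libraries and GFP- replicates 3 and 4 below all GFP+ libraries, so the GFP+ range lay inside the GFP- range. The log2 fold change of -0.50 had a 95% interval from -1.18 to 0.18 and a DESeq2 adjusted p of 0.44. That interval includes both 0 and a log2 fold change of -1. The value was -0.21 without GFP- replicate 1 and -0.32 without GFP- replicate 2, and it ran from -0.72 to -0.16 over all fits tried.

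The order of the GFP- libraries varied among the 31 G2/M genes. GFP- replicates 1 and 2 held the highest GFP- value for 13 and 14 of them, and GFP- replicate 3 the lowest for 20. Summed over the 31 genes, GFP- replicates 1 to 4 had 16942, 16000.4, 6999 and 9512.5 normalized counts and GFP+ replicates 1 to 4 had 9171, 9986, 10367 and 7552. The sums overlapped, with means of 12364 ± 4868 and 9269 ± 1249 (SD, n = 4 each) and a log2 ratio of -0.42. This ratio was -0.61 without GFP- replicate 3 and -0.23 without GFP- replicate 1. Without GFP- replicate 3, 4 G2/M genes were called lower (Ccnb2, Foxm1, Birc5 and Kif20a), and without GFP- replicate 2 there were 0.

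The G1 regulators summed to 6968, 6537, 4999 and 7660.4 normalized counts in GFP- and to 3199, 3743, 3498 and 4638 in GFP+ libraries. These sums did not overlap, and the ratio of the means was -0.80 on the log2 scale, from -0.91 to -0.71 with any 1 library left out. The ratio rested largely on Cdk2 and Ccnd2, which the study had singled out, being -0.53 without Cdk2 and -0.30 without both. Cdk6, also singled out, was kept in these sums. The groups still did not overlap, with a lowest GFP- sum of 4340 and a highest GFP+ sum of 4220 without Cdk2. Without both genes these were 2472 and 2231. Whether G1 regulators and G2/M genes differed in response was not tested.

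**Figure D4:**
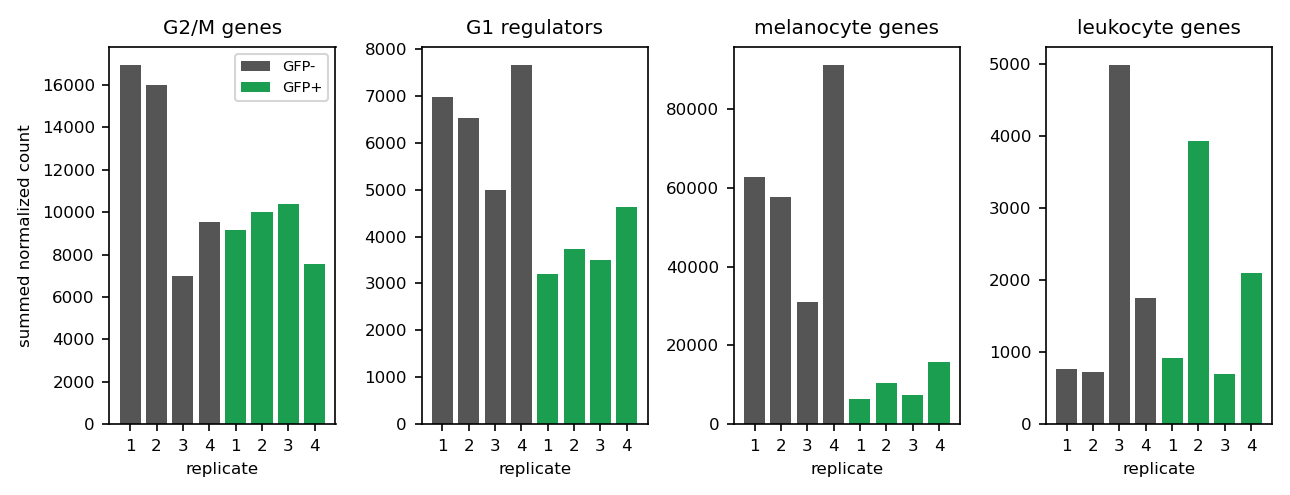
Summed normalized counts (vertical, linear axes from 0) in each replicate of GFP- (gray) and GFP+ (green) cells for G2/M genes, G1 regulators, melanocyte genes and leukocyte genes. GFP- replicates 1 and 2 stand highest for G2/M genes and GFP- replicate 3 lowest of all 8 libraries, whereas G1 and melanocyte sums are lower in every GFP+ than in any GFP- library.

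**Figure D5:**
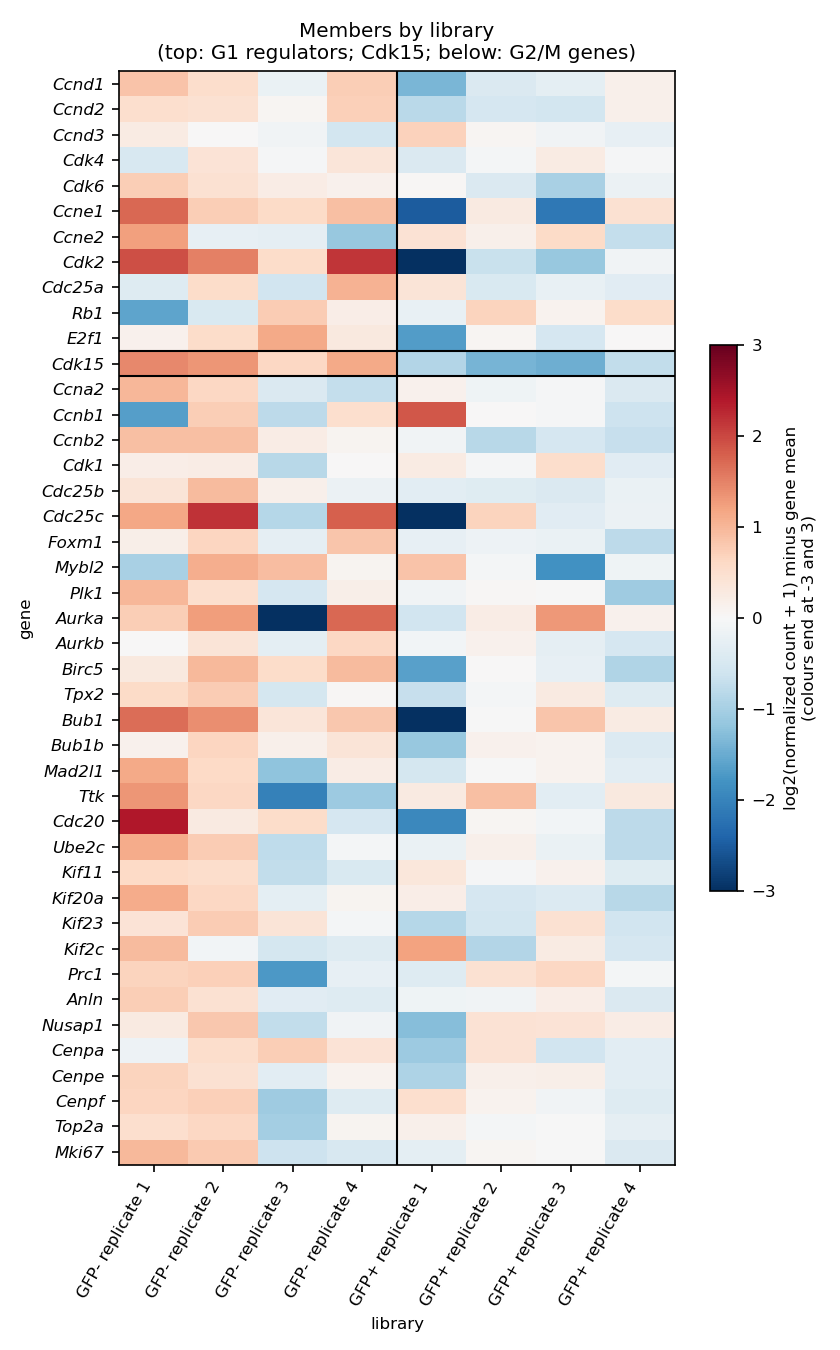
Log2(normalized count + 1) of each member (rows) in each library (columns), relative to the gene's mean over the 8 libraries, from blue (lower) to red (higher). In G2/M rows GFP- replicates 1 and 2 are mostly red and GFP- replicate 3 mostly blue, while Cdk15 is red in all GFP- and blue in all GFP+ libraries.

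Levels of different genes were compared as normalized counts per kilobase of exon. Among the CDKs, GFP- cells had 228 ± 94.3 per kilobase of Cdk2, 183 ± 48.9 of Cdk4, 108 ± 24.8 of Cdk15, 30.8 ± 8.95 of Cdk1 and 29.4 ± 5.87 of Cdk6 (SD, n = 4 each). Cdk2 lay above Cdk4 in 2 of 4 GFP- libraries, so that their order was within the spread, as was that of Cdk1 and Cdk6. In GFP+ cells Cdk4 stood first in all 4 libraries, at 164 ± 31.2 per kilobase, ahead of Cdk2 (37.4 ± 26.5), Cdk1 (34.8 ± 8.95), Cdk15 (22.5 ± 5.74) and Cdk6 (17.5 ± 4.97). Cdk2 lay above Cdk1 in only 2 of 4 GFP+ libraries and above Cdk15 and Cdk6 in 3 of 4, so its place after Cdk4 was within the spread.

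Among the D-type cyclins, Ccnd2 had the highest level per kilobase in all 8 libraries, at 262 ± 47.8 in GFP- and 146 ± 44.8 in GFP+ cells (SD, n = 4 each). Ccnd1 (102 ± 29.5) lay above Ccnd3 (56.2 ± 12.1) in all 4 GFP- libraries, but in 2 of 4 GFP+ libraries, where they had 53.7 ± 21.1 and 65.5 ± 21.02. Among the mitotic cyclins, Ccnb2 stood at 182 ± 53.6 and 86.0 ± 20.2 per kilobase, Ccna2 at 97.2 ± 52.6 and 74.1 ± 12.0, and Ccnb1 at 13.6 ± 9.01 and 21.5 ± 19.2 in GFP- and GFP+ cells. Ccnb1 lay below Ccna2 and Ccnb2 in every library.

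A pair of further lists placed the members among their pathway. Of 61 tested genes of mitosis outside the set, 4 were called lower (6.56%, near the 4.76% of all tested genes) and 0 higher (against 4.66%), with a median log2 fold change of -0.36, and edgeR called 0. Those called were Cdca3, an adaptor protein of mitotic entry (log2 fold change -1.22, DESeq2 adjusted p = 0.00381), Arhgap11a, a RHOA inhibitor (-1.24, 0.0219), Zwilch, a kinetochore checkpoint protein (-0.999, 0.0455), and Cenpm, a centromere protein (-1.75, 0.0498). In all 4 every GFP+ library lay below every GFP- library, as in no other gene of this list (6.56%, near the 5.95% of all tested genes). The opposite held for 1 gene of the list (against 6.37%). Of 18 alternatives, the call was lost in 3 for Cdca3, 9 for Arhgap11a, 14 for Zwilch and 15 for Cenpm, edgeR among them for each. Of 29 tested genes of G1 control and the RB pathway outside the set, 0 were called lower (against 4.76%) and 1 higher (against 4.66%). Neither count was above the share of all tested genes, and the median was -0.09. The gene called was Myc, a transcription factor that promotes growth and G1 progression, which rose from 2241 ± 382 to 3603 ± 781 normalized counts (SD, n = 4 each), with a log2 fold change of 0.69 ± 0.21 (SE), a DESeq2 adjusted p of 0.0175 and an edgeR adjusted p of 0.0485. Every GFP+ library lay above every GFP- library for Myc. Its call was lost in 6 of 18 alternatives, with a DESeq2 adjusted p of 0.0724 without GFP- replicate 1, 0.0559 without GFP- replicate 2, 0.0545 without GFP+ replicate 1, 0.107 without GFP+ replicate 3 and 0.134 without both replicate 1 libraries.

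Transcripts of pigment cells moved with the groups beside these results. Of 17 melanocyte genes, 15 were called lower and 1 higher (Kit), and their sum ran from 31127 to 91215 normalized counts in GFP- and from 6481 to 15758 in GFP+ libraries. The summed G1 regulators ranked the libraries as the melanocyte sum did within each group, replicates 4, 1, 2, 3 in GFP- and 4, 2, 3, 1 in GFP+ cells. Without Cdk2, whose counts ranked the libraries as those of the melanocyte gene Pmel did, the G1 order was the same in GFP+ cells and 4, 2, 1, 3 in GFP- cells, with 5248 and 5252 normalized counts in GFP- replicates 1 and 2. The summed G2/M genes did not follow it, being highest in GFP- replicate 1 and GFP+ replicate 3. Defining genes such as Tyr, Dct and Pmel were above 0 in every library, and Gpr143 was at 0 in GFP+ replicate 1. Of 9 tested endothelial genes 1 was called lower (Vwf), and of 7 pericyte genes 1 lower (Mcam) and 1 higher (Abcc9). Of the other lists reported here, none of the 12 leukocyte or 4 keratinocyte genes was called, and the leukocyte sum was highest in GFP- replicate 3 (4988). The part of other cells in the cell cycle differences was not tested.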

How the data were processed

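Cells from 4 GFP+ and 4 GFP- sorts were compared, grouped by the labels. Stranded total RNA libraries (SMARTer Pico) had been run on an Illumina NextSeq. According to the methods and the submitters' processing notes, the authors trimmed reads with cutadapt 3.4, mapped them to GRCm38 with STAR 2.7.3a and counted them per Ensembl gene and by strand with featureCounts 2.0.1. Reads matching several places can be lost, so genes with near-identical copies are uncertain. The authors deposited raw read counts, from which all values here start, and a normalized score per library, the count over its DESeq2 size factor, from which the values used here differ only by rounding. The deposited table also holds the authors' own fold changes and p-values, which were not used. Per-sample columns left unused: 0.

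Genes were fitted in R 4.3.3 with DESeq2 1.42.0, group as the only term and default filters, and called at a Benjamini-Hochberg adjusted p under 0.05. Of 53801 genes, 29043 had a count and 15283 an adjusted p. Intervals are 95% Wald intervals. No batch is given in the labels. Alternatives were edgeR 4.0.16 (quasi-likelihood test), limma 3.58.1 voom, other scalings and filters, a replicate block and each library left out; leaving out both replicate 1 libraries was chosen after seeing the data. Code was tested on simulated data. Replicates of a group differed beyond sampling noise (chi-square per degree of freedom 9.68 to 73.0). Gene coordinates came from GENCODE M21, which held 53706 of the 53801 identifiers, and promoters from RefSeq. The members, lists, tests and the rule for named genes were chosen with earlier results of these data known. That rule gave full values for members called by DESeq2 or edgeR, members whose groups did not overlap, and Mki67, Cdk1, Ccnd1 and Cdk4, and named the called genes of the context lists, and Pmel beside Cdk2. Other single members were given values after theirs were seen. A further list of marker genes is not reported here.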

Additional observations from a re-analysis of the deposited data

Results flagged for a closer look

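In 3 of the 90 groups of 4 libraries examined, 1 library stood apart from the other 3 by Dixon's test, which chance does in about 1 in 20 groups. Ccnb1 reached 211.1 normalized counts in GFP+ replicate 1, against 37.2 to 58.2 in the other GFP+ libraries. Cdc20 reached 629.5 in GFP- replicate 1, against 84.0 to 175.8 in the other GFP- libraries. Kif23 reached 315 in GFP+ replicate 3, against 126 to 156 in the other GFP+ libraries, and it was called lower in the fit without that library.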

How the results depend on the processing

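Of the members called, Cdk15 kept its call under every alternative tried, and the other 4 lost theirs under 3 to 5 of 18, given beside their values except for edgeR with the replicate block (adjusted p of 0.126 for Ccnb2 and 0.121 for Birc5). The direction reversed for Cdk1, with log2 fold changes of -0.10 under limma voom, -0.025 without GFP- replicate 3 and -0.053 without GFP+ replicate 3. Another 9 members, none of them called, also changed sign under some alternative (Ccnd3, Ccne2, Ccnb1, Ttk, Kif11, Kif2c, Prc1, Nusap1 and Cenpf). The edgeR test called 0 G2/M genes, 0 other mitosis genes and 732 of all genes, and edgeR with the replicate block 0, 0 and 596, and 0 other G1 and RB pathway genes (Myc, adjusted p = 0.0837). Limma voom called 4 G2/M genes and 2 other G1 and RB pathway genes. Other mitosis genes called numbered 2 with a minimum mean of 10 counts and 2 without independent filtering, the setting that moved the median of all genes to -0.13. Leaving out 1 library gave 0 to 4 G2/M genes, 0 to 3 G1 regulators, 1 to 4 other mitosis genes, 0 to 3 other G1 and RB pathway genes and 969 to 1837 of all genes. Without both replicate 1 libraries there were 1 G1 regulator, 0 other mitosis genes and 0 other G1 and RB pathway genes. The cause of these changes was not tested. Same-numbered libraries deviated from their group means with correlations of 0.15, -0.15, -0.12 and 0.24, and 4 of 8 libraries correlated best with their own number. These values do not settle whether the numbers pair the samples, and the main test did not use the numbers. The replicate block in DESeq2 called 3 G2/M genes (Ccnb2, Birc5 and Kif20a, the last with an adjusted p of 0.0326, against 0.165 in edgeR with the block), 3 G1 regulators (Ccnd2, Cdk2 and Cdk6, the last with 0.0436, against 0.159 in edgeR with the block) and 1492 of all genes. Depth limits the G2/M genes most in GFP- replicate 3, where 637 reads fell on all 31.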
